A study of Drosophila melanogaster with 4 samples.

Results

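Arm 3R is the right arm of the third chromosome of Drosophila melanogaster, and its sequence in FlyBase release 5 is 27.9 Mb long, with the centromere-proximal end on the left. The regions described here are all clusters on sequence 3R in the authors' list of H3K9me2 enrichment for the replicate set. They were selected by the sequence name, on an arm picked with earlier results of these data known, and number 429 of the 4277 clusters in that list. The chromatin came from whole wild-type Oregon-R embryos, 14 to 16 h old, fixed with formaldehyde. It was immunoprecipitated with an antibody against H3K9me2 of a new lot, in 2 ChIP libraries, and each had an input library, which makes 4 samples. All samples share the strain, genotype and stage, so no treatment or mutant was compared, and a whole embryo mixes many cell types whose shares of the signal cannot be told apart. The labels do not say whether the replicates came from separate embryo collections, so each SD measures only the spread between 2 libraries, which may be technical.

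H3K9me2, histone H3 dimethylated at lysine 9, is laid down by histone methyltransferases such as Su(var)3-9, Eggless and G9a. It is bound by the chromodomain protein HP1, and in flies it covers the repeat-rich chromatin around the centromeres and much of the small dot chromosome. On the long euchromatic arms it is known from isolated sites, many of them at transposable elements and other repeats. A cluster is a stretch listed by the authors as a region of significant enrichment, given by a start, an end and a score, and the labels name an input library for each replicate list. The score ranks clusters within 1 list only, because its scale is not stated. The 3 lists give no read counts, so the depth behind each cluster is unknown.

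The 3R clusters were few for the length of the arm and were short. Arm 3R holds 20.0% of the sequence of the headers without Uextra, but 10.0% of the clusters and 3.31% of the covered length of the replicate-set list. Replicate 1 had 250 clusters on 3R, which covered 555 kb or 1.99% of the arm. Replicate 2 had 156 clusters over 360 kb or 1.29%. The replicate-set list had 429 clusters over 892 kb or 3.20%. The mean of the replicates was 1.64% ± 0.495 (SD, n = 2). The lists differ in length over the whole genome, and whether this comes from depth or threshold was not tested.

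Arm 3R was the least marked of the long arms in these lists, which is also how it came to be described. Among 3R, 2L, 2R, 3L and X, 3R had the lowest covered share in both replicates and in the replicate-set list, over the whole arm, without the proximal 1 Mb and without the proximal 2 Mb. The order did not turn in any of the 15 combinations of 5 settings and 3 lists for each of these regions, but these overlap, since all derive from the same 2 libraries. The 5 settings were the lists as deposited, the upper 50% and the upper 25% by score, clusters merged within 1 kb, and lists cut to the number of clusters in replicate 2, which leaves replicate 2 as it was. The number of clusters per Mb was also lowest on 3R in 15 of 15 combinations over the whole arm and without the proximal 1 Mb. Without the proximal 2 Mb it was lowest in 14 of 15, the exception being 3L in the upper 25% of the replicate-set list. The upper 25% left very few clusters on 3R, 0.179 per Mb of the arm in replicate 1 and 0.287 in replicate 2, so the order there rests on small counts. With 2 libraries, an exact paired permutation test between arms cannot give a two-sided p below 0.5, so these differences are given as values.

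Set beside 2L and 3L, 3R differed in the number of clusters more than in their median length, and its long clusters were rarer. Without its proximal 1 Mb, 3R had 6.78 ± 2.23 clusters per Mb, against 10.9 ± 2.38 on 2L and 11.8 ± 2.13 on 3L (SD, n = 2 each). These spreads are wide because replicate 2 had fewer clusters on every one of these arms, and within each replicate the order was the same. The covered share of distal 3R was 0.550 times that of distal 2L in replicate 1 and 0.476 times in replicate 2. Set against distal 3L it was 0.388 times in replicate 1 and 0.310 times in replicate 2. The difference of 3R minus the other arm was -1.41 ± 0.137 percentage points for 2L and -2.79 ± 0.183 for 3L (SD of the differences within replicates, n = 2; two-sided exact permutation p = 0.5 for each, the smallest possible). Distal 3L still holds the outer part of its proximal block. Without the proximal 2 Mb, a choice made after the values were seen, the ratio to 2L was 0.591 in replicate 1 and 0.509 in replicate 2, and the ratio to 3L was 0.638 in replicate 1 and 0.573 in replicate 2. The median length of distal clusters in the replicate-set list was 1790 bp on 3R, 1926 bp on 2L and 1965 bp on 3L. Long clusters were rarer. Of 390 distal clusters on 3R, 10 or 2.56% were at least 5 kb long. On 2L 29 of 420 were, or 6.90%, and on 3L 52 of 459, or 11.3%. The distal 3L count takes in the outer part of its block. There the longest cluster was 73.8 kb, and 17.2 kb without the proximal 2 Mb. The clusters per Mb of distal 3R were 0.662 times those of distal 2L in replicate 1 and 0.561 times in replicate 2. Against distal 3L they were 0.629 times in replicate 1 and 0.506 times in replicate 2. The ratios of covered share were lower still, so the number of clusters alone did not make up the difference. Without the proximal 2 Mb, the clusters per Mb of 3R were 0.706 times those of 2L in replicate 1 and 0.587 times in replicate 2. Against 3L they were 0.715 times in replicate 1 and 0.613 times in replicate 2. The ratios of covered share given above for that region were again lower, but for 3L by less than with its block.

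The proximal end of the 3R sequence carried no block of marked chromatin. In replicate 1, 5.73% of the proximal 1 Mb was covered, and in replicate 2, 3.81%. The same window of 2L was covered over 69.5% in replicate 1 and 65.1% in replicate 2, and that of 3L over 84.8% in replicate 1 and 82.4% in replicate 2. In 100 kb windows counted outward from the proximal end, the 10 windows of 3R lay between 0% and 13.7% in replicate 1 and between 0% and 9.52% in replicate 2. Those of 3L lay between 69.0% and 95.03% in replicate 1 and between 69.1% and 91.8% in replicate 2. Those of 2L lay between 2.90% and 97.6% in replicate 1 and between 1.57% and 94.99% in replicate 2, since its block ends inside the 1 Mb. The highest of the 3R windows and the lowest of the 3L windows did not overlap.

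**Figure D1:**
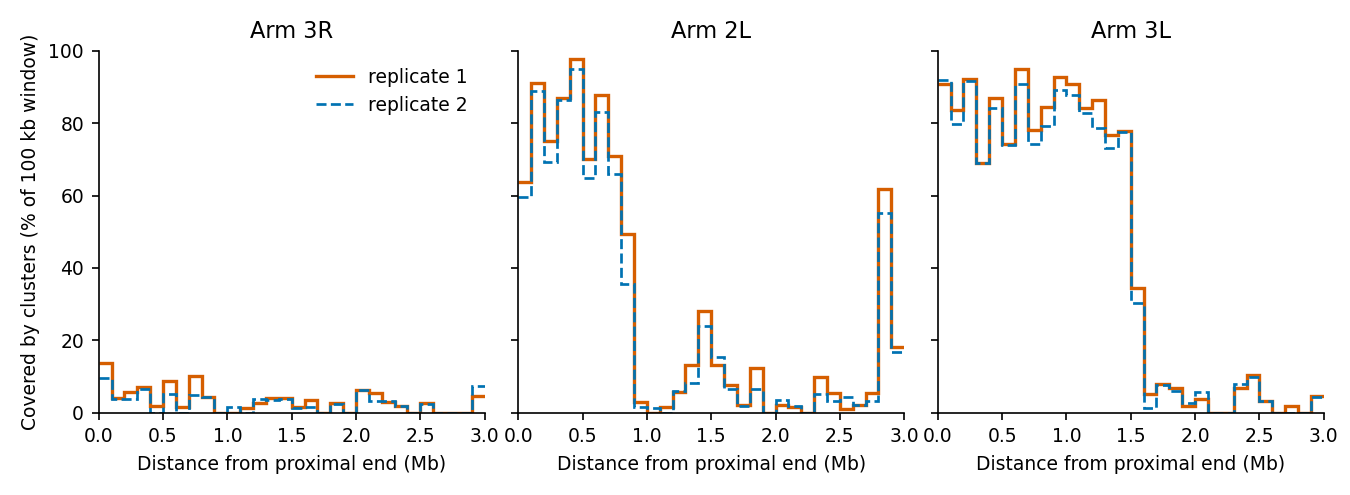
Covered share of successive 100 kb windows (y axis, % of the window) against the distance from the proximal end of the arm sequence (x axis, Mb) for arms 3R, 2L and 3L, with solid lines for replicate 1 and dashed lines for replicate 2. The 3R windows of the first 1 Mb stay at or under 13.7%, while 3L starts with a block in which every window of the first 1 Mb is covered over at least 69.0%.

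The proximal 1 Mb was still the most marked 1 Mb of 3R. It was covered 3.10 times as densely as the rest of the arm in replicate 1 and 3.19 times in replicate 2, a mean of 3.14 ± 0.0618 (SD, n = 2). On 2L the ratio was 20.7 in replicate 1 and 25.9 in replicate 2, and on 3L it was 17.8 in replicate 1 and 21.3 in replicate 2. A low ratio was not particular to 3R, since that of X was 2.76 in replicate 1 and 3.28 in replicate 2. The excess on 3R lay in the number of clusters, 39 per Mb in the replicate-set list against 14.5 per Mb on the rest of the arm, while the median length was 1908 bp against 1790 bp. The first 100 kb were the most covered 100 kb window of the arm in the replicate-set list, with 22.1%, but not in the replicates. There the window from 3500 to 3600 kb was higher, with 15.8% in replicate 1 and 15.7% in replicate 2, against 13.7% and 9.52% in the first 100 kb. These windows were singled out after their values were seen. The window from 900 to 1000 kb held no cluster in any of the 3 lists. These values describe the arm sequence as it ends in release 5. The heterochromatin of this arm that was assembled apart as 3RHet, 2.52 Mb long, was covered over 78.1% in replicate 1 and 77.4% in replicate 2.

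The first and last clusters of the arm had little or no replicate support. The first cluster of the replicate-set list spanned 612 to 2322, 0.611 kb from the left end of the sequence, and was touched by neither replicate. The first cluster of replicate 2 began at 7687 and that of replicate 1 at 13474. The cluster from 15135 to 22662, 7.53 kb long, was the first one touched by both, with 94.2% of it covered in replicate 1 and 65.6% in replicate 2. The last cluster of the replicate-set list spanned 27840582 to 27841960, 63.1 kb from the right end, and was touched by replicate 1 only. The last cluster of replicate 2 ended at 26907545, so the final 998 kb of the arm held no cluster in that list.

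Along the arm, every 1 Mb window held at least 4 clusters of the replicate-set list, and marking in that list was thin and uneven rather than absent. In replicate 2 the last window, from 27 Mb, was not covered at all. It was the only window with no cluster touched by both replicates, and 8 of its 12 clusters were touched by neither. The mean covered share of the replicates in the 28 windows had a median of 1.41% and ranged between 0.292% and 4.77%. After the proximal 1 Mb, the 4 highest were the window from 3 to 4 Mb with 4.22% ± 0.634, from 13 to 14 Mb with 2.84% ± 0.964, from 26 to 27 Mb with 2.81% ± 0.129 and from 2 to 3 Mb with 2.40% ± 0.0334 (SD, n = 2 each). The lowest was the window from 22 to 23 Mb with 0.292% ± 0.109 and 4 clusters. It was followed by the last, shorter window from 27 Mb with 0.392% ± 0.554, the window from 18 to 19 Mb with 0.579% ± 0.0440, that from 6 to 7 Mb with 0.623% ± 0.372 and that from 20 to 21 Mb with 0.709% ± 0.167 (SD, n = 2 each). Neighbours in this order often differed by less than their spread, whereas the proximal window and the window from 3 to 4 Mb exceeded all others in both replicates. Over the 28 windows the replicates gave Spearman's rho of 0.858 and Pearson's r of 0.897, a description across windows that share the same 2 libraries.

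**Figure D2:**
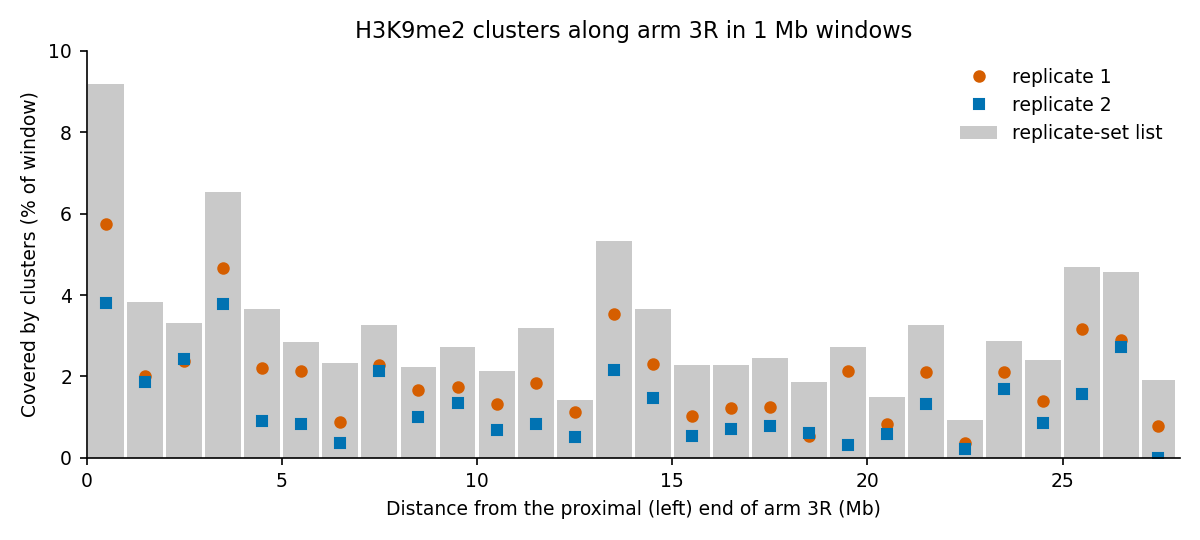
Covered share of each 1 Mb window of arm 3R (y axis, % of the window) against the distance from its proximal end (x axis, Mb), with circles for replicate 1, squares for replicate 2 and bars for the authors' replicate-set list. The proximal window is the highest with 9.18% in the replicate-set list, and the window from 22 to 23 Mb is the lowest with 0.937%.

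Marking was thinner between 6 and 24 Mb than on either side. The replicate-set list had 18.2 clusters per Mb from 1 to 6 Mb, 12.7 from 6 to 12 Mb, 14.3 from 12 to 18 Mb, 11.5 from 18 to 24 Mb and 17.4 from 24 Mb to the right end. The covered share over these 5 regions was 2.67%, 1.62%, 1.74%, 1.35% and 2.09% in replicate 1. In replicate 2 it was 1.96%, 1.06%, 1.03%, 0.788% and 1.32%. The lowest share was that from 18 to 24 Mb in both replicates, and the highest was that from 1 to 6 Mb. These boundaries were set after the profile was seen.

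The longest stretches without any cluster lay far from the proximal end. In the replicate-set list the longest spanned 604 kb, from 22096781 to 22700805. It held no base of replicate 1 and 18 bp of replicate 2 at an edge. In replicate 1 the unmarked stretch around it began at 21862492 and spanned 838 kb, and in replicate 2 it began at 21572190 and spanned 1129 kb. In both replicates this was also the longest stretch of the arm. It ended at 22700805 in the replicate-set list, at 22700887 in replicate 1 and at 22700787 in replicate 2, each time at the left side of the cluster from 22700806 to 22702950, which both replicates touched.

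The next 9 stretches of the replicate-set list spanned between 270 kb and 392 kb. The longest of these, 392 kb from 12588398 to 12979950, and a stretch of 274 kb from 12307991 to 12582081 were parted only by a pair of clusters. Of this pair, the cluster that began at 12582082 was touched by neither replicate and the one that began at 12586805 by replicate 1 only. A stretch of 355 kb from 9547534 to 9902137 and one of 327 kb from 10154174 to 10480924 lay on either side of a run of clusters. A stretch of 346 kb from 27161155 to 27507172 lay near the right end, and one of 335 kb spanned 15760464 to 16095862. The remaining 3 spanned 286 kb from 7850858, 271 kb from 17425563 and 270 kb from 25512178. Together the 10 stretches made up 3.46 Mb or 12.4% of the arm. Of the 10, 7 held no base of a cluster in either replicate, the other 3 were entered by at most 137 bp at an edge, and none held a whole replicate cluster.

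Unmarked stretches of at least 100 kb took up most of the arm. There were 93 of them in the replicate-set list, which made up 61.1% of 3R. In replicate 1 they made up 77.8% and in replicate 2, 89.5%. On distal 3R such stretches took 62.7% of the sequence in the replicate-set list, against 52.9% of distal 2L and 49.2% of distal 3L. The median distance between neighbouring clusters was 38.9 kb on distal 3R, 23.9 kb on distal 2L and 24.4 kb on distal 3L. The single longest stretch did not set 3R apart, since it was 604 kb on 3R, 678 kb on 2L and 538 kb on 3L. Of the 280 windows of 100 kb on 3R, 76 or 27.1% held no base of the replicate-set list, and none of these 76 held one of either replicate. Both replicates had marked bases in 105 windows, or 37.5%.

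**Figure D3:**
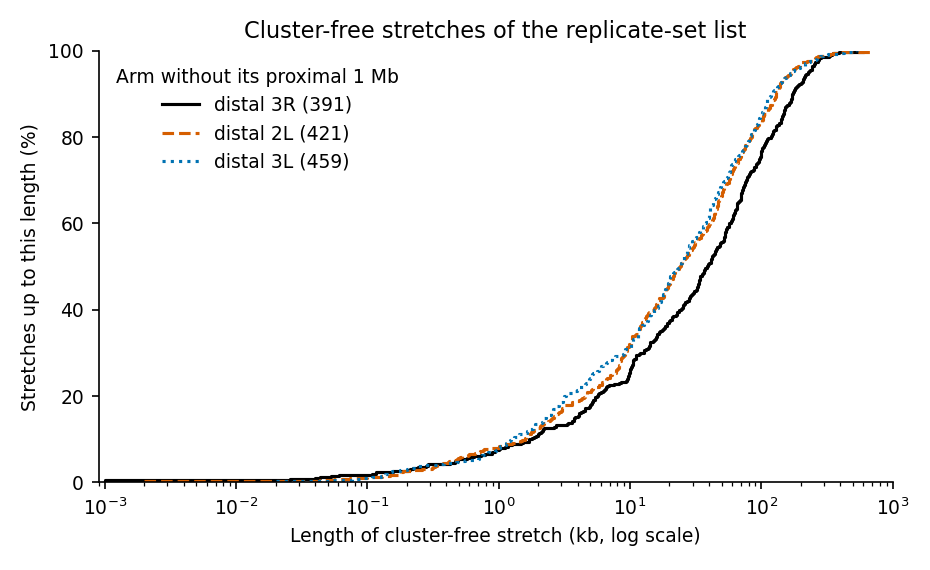
Cumulative share of cluster-free stretches (y axis, %) against their length in the replicate-set list (x axis, kb, log scale) for distal 3R, distal 2L and distal 3L, each without its proximal 1 Mb, with the number of stretches in brackets. The 3R curve lies to the right of the other curves over most of the range above a few kb, with a median of 38.9 kb against 23.9 kb on 2L and 24.4 kb on 3L.

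Most 3R clusters stood alone. When clusters closer than 10 kb were joined, a distance chosen after the data were seen, 237 of the 429 clusters, or 55.2%, had no neighbour and 53 pairs formed. A further 86 clusters lay in 23 groups of 3 or more. The largest group was at the proximal end, 8 clusters from 612 to 33113, of which clusters filled 55.4% in the replicate-set list, 32.3% in replicate 1 and 24.0% in replicate 2. Next came 7 clusters from 203263 to 243425, the longest group with a span of 40.2 kb. Of this span, 14.3% was covered in replicate 1 and 8.90% in replicate 2. This group was followed by 6 clusters from 3891029 to 3923896 and 5 clusters from 13703653 to 13728068. Both replicates touched 2 of the first 8 clusters, 1 of the 7, 3 of the 6 and 2 of the 5. The last of these groups was covered over 51.3% in replicate 1 and 32.6% in replicate 2.

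The clusters themselves were short, and the longest was 8.58 kb. The median in the replicate-set list was 1817 bp, with the middle 50% of clusters between 1398 and 2288 bp, and 51 clusters or 11.9% were at least 3 kb long. Replicate 1 had a median of 1955 bp and a longest cluster of 8.75 kb, and replicate 2 a median of 2026.5 bp and a longest cluster of 8.45 kb. The shortest cluster was 1001 bp in the replicate-set list, 1301 bp in replicate 1 and 1307 bp in replicate 2.

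Of the 10 longest 3R clusters, 9 were touched by both replicates. The longest, from 3520969 to 3529545, was covered over 99.6% in replicate 1 and 98.5% in replicate 2. The cluster from 26899720 to 26907636, 7.92 kb long, was covered over 98.7% in replicate 1 and 98.0% in replicate 2, and it is the last cluster of the arm in replicate 2. The 3 lists placed the limits of both almost identically. The cluster from 21219925 to 21228251, 8.33 kb long, was covered over 75.1% in replicate 1 and 84.0% in replicate 2. The clusters from 17939019 to 17945744, 26471863 to 26478071, 712867 to 719043, 4732818 to 4738929 and 872067 to 877563 were between 5.50 and 6.73 kb long. Replicate 1 covered between 45.1% and 93.3% of these 5 clusters, and replicate 2 between 58.8% and 83.9%. The exception among the longest was the cluster from 753772 to 761850, 8.08 kb long, which 3 replicate 1 clusters covered over 57.6% and which replicate 2 did not touch at all.

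Ranked by the authors' score in the replicate-set list, 5 of the clusters touched by both replicates stood above the others. They were the clusters from 872067 with a score of 3.03, from 3520969 with 2.77, from 26899720 with 2.68, from 4732818 with 2.33 and from 712867 with 2.12 in the replicate-set list. The same 5 are among the 10 longest. The next 5 scored between 1.40 and 1.62. These were the clusters from 7271200 to 7274844, 2000738 to 2004763, 13707000 to 13712457, 2005547 to 2008346 and 3555095 to 3559358, and each was a single cluster in both replicates. The pair from 2000738 and from 2005547 are neighbours, and the cluster from 3555095 lies to the right of the longest cluster of the arm, in the same 100 kb window. The highest of these scores stood at percentile 94.8 of the whole replicate-set list and that of the longest cluster at percentile 90.2. The order differed in the replicate lists. The cluster from 15569809 to 15571545, touched by both, scored 1.11 in the replicate-set list but 2.75 in replicate 1 and 3.42 in replicate 2. No 3R cluster of replicate 2 scored higher. Only 90 of the 429 clusters, or 21.0%, were in the upper 50% of the whole list by score. Without the proximal 1 Mb the share was 20.5% on 3R, 25.7% on 2L and 32.0% on 3L. The median score of these distal clusters was 0.501 on 3R, 0.497 on 2L and 0.540 on 3L. The order of 3R and 2L depended on the list. In replicate 1 the median was 0.628 on distal 3R and 0.618 on distal 2L, and in replicate 2 it was 0.878 and 0.890.

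The highest scores of all on 3R belonged to short clusters that neither replicate list contained. Of the 10 highest scores, 7 were of clusters touched by neither replicate, with lengths between 1001 and 2172 bp, and 3 of clusters touched by both. The highest of all, 3.77, was that of a cluster of 1001 bp from 10067042 to 10068042. Among the 22 clusters with a score of at least 2, 16 were touched by neither replicate, with a median length of 1181 bp, and 5 by both, with a median length of 6177 bp. These clusters were named after their values were seen, and the number of reads behind their scores is unknown. That the single highest score was of a cluster touched by neither replicate was not particular to 3R. On distal 2L the highest score was 3.99 among clusters touched by neither replicate and 3.13 among those touched by both. On distal 3L these scores were 3.77 and 2.91. The share touched by neither at such scores was not computed on 2L, on 3L or over the whole list, so the counts do not set 3R apart.

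**Figure D4:**
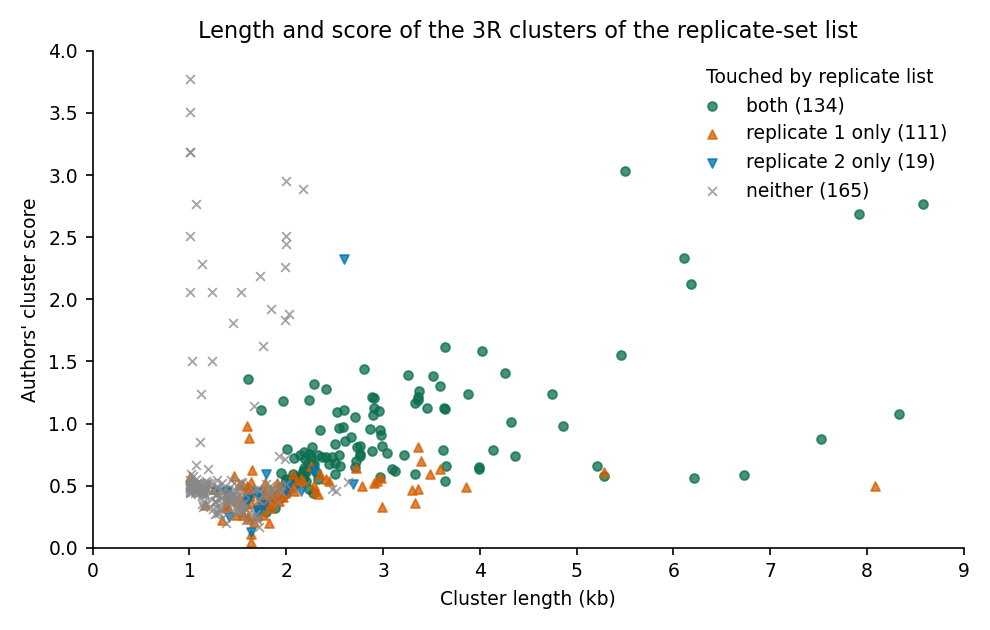
The authors' score (y axis, no unit) against the length (x axis, kb) of the 429 clusters of 3R in the replicate-set list, each point 1 cluster, with the symbol giving which replicate lists touch it and the number of clusters in brackets. Clusters over 5 kb are touched by both replicates with few exceptions, while the highest scores, up to 3.77, are of clusters near 1 kb touched by neither.

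A minority of the 3R clusters of the replicate-set list was found in both replicates. Of the 429, 134 or 31.2% were touched over at least 1 bp by both (95% Wilson interval 27.0 to 35.8%, counting error only). The share over the whole replicate-set list was 54.6%. Replicate 1 alone touched another 111 and replicate 2 alone 19, while 165 or 38.5% had no overlap with a cluster of either, a class that made up 25.2% of the whole list. The 134 supported clusters held 401 kb, which is 45.0% of the cluster length on 3R and 1.44% of the arm. The median share of a supported cluster covered was 93.9% in replicate 1 and 85.2% in replicate 2, and 129 of the 134 were a single cluster in each.

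Support was more frequent among longer clusters. The 108 shortest clusters, up to 1398 bp, included none touched by both replicates and 94 touched by neither. Both touched 6 of the next 107, with lengths up to 1817 bp, 47 of the 107 after these, with lengths up to 2288 bp, and 81 of the 107 longest. Of the clusters touched by neither, 82 fell below 1301 bp, under which no replicate cluster was listed. It was also more frequent among the higher scores. In 4 classes of equal size by score, from low to high, both replicates touched 6, 8, 46 and 74 clusters, and in the class of the highest scores 28 were touched by neither.

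**Figure D5:**
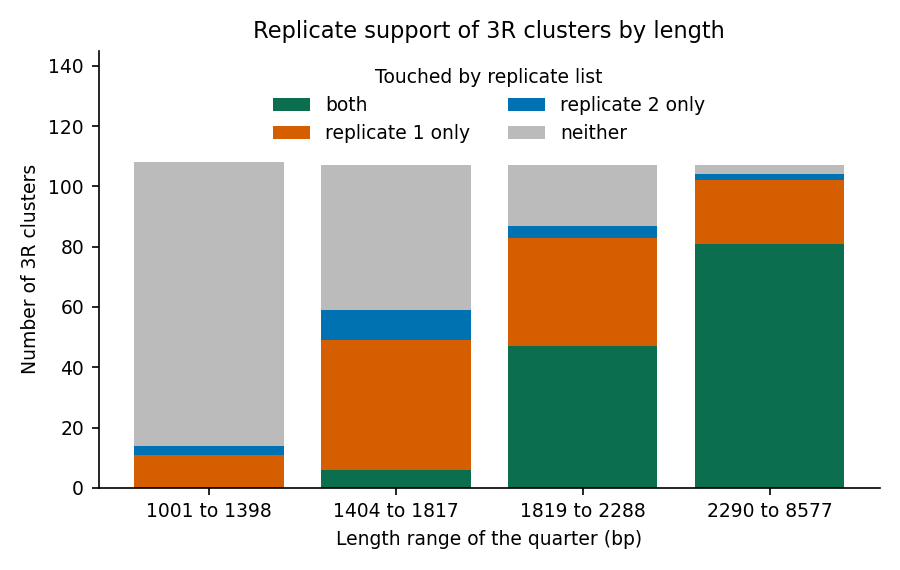
Number of 3R clusters of the replicate-set list (y axis) in 4 classes of equal size by length (x axis, range in bp), with bar segments for clusters touched by both replicates, by 1 of them or by neither. The clusters touched by both number 0, 6, 47 and 81 from the shortest to the longest class.

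Replicate support was lower on distal 3R than on the other arms set beside it. On distal 3R, both replicates touched 31.0% of the clusters (95% Wilson interval 26.6 to 35.8%), on distal 2L 42.1% (37.5 to 46.9%) and on distal 3L 44.0% (39.5 to 48.6%). Clusters are not independent samples, so these intervals describe counts only. Within each class of length the counting intervals of the 3 arms overlapped, and the value of 3R was the lowest in each class from 1.5 kb up. Among clusters of 2 to 3 kb, 68.6% were touched by both on distal 3R, 70.8% on 2L and 71.0% on 3L. Among those of 3 to 5 kb the share was 77.8% on distal 3R, 87.5% on 2L and 92.1% on 3L. Of those of at least 5 kb, 9 of 10 were touched by both on distal 3R, all 29 on 2L and all 52 on 3L. Among clusters of 1.5 to 2 kb the share was 11.8% on distal 3R, 21.7% on 2L and 19.1% on 3L. Clusters under 1.5 kb, none of which both replicates touched, made up 31.5% of the distal clusters on 3R, 24.3% on 2L and 29.2% on 3L.

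Most 3R clusters of replicate 2 were also in replicate 1, while about as many replicate 1 clusters were shared as were not. Of the 156 clusters of replicate 2, 136 or 87.2% were touched by a replicate 1 cluster (95% Wilson interval 81.0 to 91.5%). Of the 250 clusters of replicate 1, 136 or 54.4% were touched by replicate 2 (48.2 to 60.5%). Such shares were not computed over all clusters of the 2 replicate lists, so they do not set 3R apart from the rest. All 250 and all 156 were touched by the replicate-set list. The replicate 1 clusters missed by replicate 2 were shorter, with a median of 1670 bp against 2242 bp for the shared ones, and scored lower, with a median of 0.526 against 0.764. The shared length was 312 kb, which gave a Jaccard index, the shared divided by the combined length, of 0.516 on 3R. The index was 0.631 on distal 2L and 0.721 on distal 3L. The regions are unlike, since 3R is taken here with its proximal 1 Mb and distal 3L holds the outer part of its proximal block. These arms also differ in covered share, and whether the index depends on it was not tested. Over the 136 pairs of overlapping clusters on 3R, the scores of the replicates had a Spearman's rho of 0.817 and a Pearson's r of 0.920, as a description across clusters of the same 2 libraries. On distal 2L rho was 0.873 and r 0.944, and on distal 3L rho was 0.889 and r 0.943.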

How the data were processed

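The data are 3 cluster lists in GFF3 format, 1 for each of the 2 H3K9me2 ChIP libraries and 1 for the replicate set. The inputs enter only through the authors' calls. The authors deposited 1 score per cluster, whose scale is not stated. The submitters' processing notes name Bowtie 0.12.7, and positions are on FlyBase release 5, per the file headers. How clusters were called and how the replicate set was formed is not given in the sources used here. Whether depth or threshold sets the length of a list was not tested, so differences in level between lists are given as values only.

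Covered length, cluster-free stretches and overlaps were computed in base pairs with Python 3.11.15, numpy 2.4.6, pandas 2.3.3 and scipy 1.17.1. The covered share is the covered length divided by the length in the headers, with no correction for assembly gaps or sequence where reads cannot be placed. A cluster counts for the region in which it starts, and 2 clusters touch when they share at least 1 bp. The interval functions were tested on 400 simulated clusters and gave 8 of 8 known quantities. The only test was an exact paired permutation between arms over the 2 libraries. Intervals on shares are 95% Wilson intervals.

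Regions were named by rule: the 10 longest clusters, the 10 with the highest score among those touched by both replicates, the first and last cluster, the 10 longest cluster-free stretches, and the 5 highest and 5 lowest windows of 1 Mb. The arm and these rules were chosen with earlier results of these data known. Genes are not given, since the gene coordinates at hand are of another genome release.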

Additional observations from a re-analysis of the deposited data

How the results depend on the processing

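These values have no test. Those that moved beyond the SD of the replicates or the counting interval follow. Keeping the upper 50% of every list by score left a mean covered share of 0.246% of 3R, 0.227% of distal 3R and 0.747% of its proximal 1 Mb, with 0.717 clusters per Mb and a proximal to distal ratio of 4.17. These rest on the library: replicates 1 and 2 gave 0.340% and 0.151% of 3R, 0.327% and 0.128% of distal 3R, 0.968 and 0.466 clusters per Mb, and ratios of 2.15 and 6.18, which lie on either side of the 3.14 of the full lists. With the upper 25%, the shares were 0.0951% and 0.0777%, with 0.233 clusters per Mb. In the replicate-set list the shares were 3.20% of 3R, 2.97% of distal 3R and 9.18% of the proximal 1 Mb, with 15.4 clusters per Mb. A proximal window of 2 Mb was covered over 3.35%, and the ratio was 2.26 with it and 3.64 with 0.5 Mb. The longest unmarked stretch was 838 kb in replicate 1, 1129 kb in replicate 2 and 3336 kb in the upper 50% of the replicate-set list by score. Of windows of 50 kb, 51.3% held no cluster base, and of windows of 1 Mb, 0%. Support by both replicates was 66.7% of the 90 clusters in the upper 50% by score and 39.2% of the 342 clusters at least as long as the shortest replicate cluster. The Jaccard index, a single value with no SD or counting interval to move beyond, was 0.380 in the upper 50% by score. It was 0.549 with 3238 clusters from each list, against 0.516 in the full lists. The cause was not tested, apart from what each setting removes by construction. The other settings, 17 in all, moved no value beyond its spread. They include merging within 1 kb, at least 50% of a cluster covered, leaving out 1 of 2 replicates, which moves a mean by less than the SD by construction, and, added later, counting only clusters touched by both, with 1.44% of the arm. No paired analysis was possible because no cluster list of an input library alone is used here, where paired means ChIP against its input. The arms, in contrast, were paired within each replicate in the permutation test given above. The lists carry no reads, so depth was not assessed.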
